A study of Mus musculus with 10 samples.

Results

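Dense clusters are runs of open chromatin regions that lie close together along a chromosome. Here a region is an interval formed by merging the overlapping peaks of all 10 libraries on chromosomes 1 to 19 and X, and it was kept where at least 2 libraries had a peak in it (a consensus region). Consensus regions separated by 12500 bp or less were joined, and a run of 4 or more was taken as a cluster. The members were thus chosen by the positions of the authors' peak calls and by how many libraries made them. The rule gave 477 clusters with 2347 member regions, which is 9.23% of the 25424 consensus regions. The other 23077 consensus regions lay outside clusters. The spacing and size of the clusters follow from that choice and are given as description, with no test.

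The peaks come from bulk ATAC-seq, an assay in which the Tn5 transposase cuts accessible DNA and leaves sequencing adapters there. Nuclei were taken from the ventral tegmental area, a midbrain region that holds dopamine, GABA and glutamate neurons besides glia, of adult mice (past postnatal day 60). All mice had the genotype ArcCreERT2 x Sun1/+, in which a recombinase that tamoxifen switches on is driven by Arc, an immediate early gene of active neurons, and marks nuclei with a Sun1-myc-sfGFP tag at the nuclear envelope. Tagged nuclei were pulled out on magnetic beads. The libraries fall into 4 groups by rearing (early-life stress or standard) and by the label activated or non-activated. In stressed mice there were 3 libraries of each class and in standard-reared mice 2 of each, every library from a single animal. They came from 6 animals by the library names, and 4 of these animals (3 stressed) gave a library of each class. The 2 non-activated libraries after standard rearing were both female, while the other groups held both sexes. The SDs given for peak height and width are taken over the means of these few animals. In 4 animals the mean averages both classes and in the others it is a single library, so class and depth enter these SDs. Cell type markers were not analysed here.

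Regulatory DNA is not spread evenly. A promoter is open where transcription starts, enhancers are open at a distance from the genes they act on, and several of both can sit within a short stretch, either around 1 strongly regulated gene or where many genes are packed together. Joining neighbouring elements across gaps of this size is a common first step in the search for super-enhancers, but those are then ranked by signal, which was not done here. A dense cluster in the present sense is therefore only a place with many called regions. Genes within the clusters and their sequences were not analysed here, because the gene and promoter tables used are of the build GRCm38.p6 and the peaks are on mm39. Clusters are given by position (1-based, mm39).

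Depth differed greatly between libraries and bears on every count below. Solved from the peak lists, it was 5.30 to 10.9 fragments per kb of genome in the 5 activated libraries and 6.52 in stressed non-activated replicate 1. In the other 4 non-activated libraries it was 0.309 to 1.45. The 6 deeper libraries also had shorter fragments, 134 to 161 bp against 210 to 250 bp. The lists held 7075 to 50771 peaks on the chromosomes used. A region absent from a shallow list may be closed or may have been missed at that depth.

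Most clusters were small. Of the 477 clusters, 266 had 4 regions, 107 had 5, 45 had 6 and 27 had 7, and 32 had 8 or more. The largest had 12 regions. Just below the rule, 771 runs had 3 regions, so the 2313 regions of those runs were nearly as many as all members. Gaps near the limit were about as common on either side, with 227 gaps within 500 bp below it and 207 within 500 bp above it. Cluster length ran from 2.63 to 72.6 kb with a median of 25.3 kb, and all clusters together spanned 12.7 Mb. Open regions took up 10.9% of that span. The gap between neighbouring members had a median of 6.06 kb, and 266 of the 1870 gaps (14.2%) were under 1 kb.

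**Figure D1:**
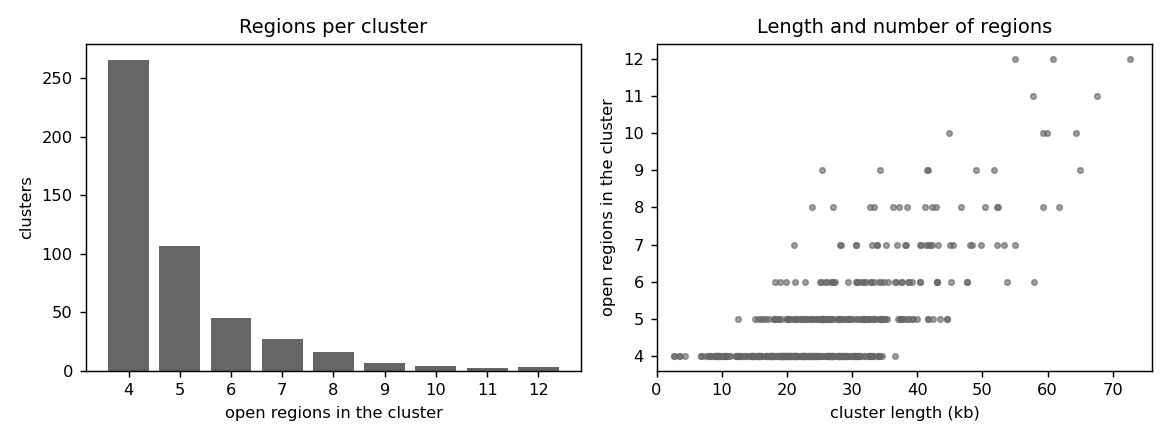
Left, the number of clusters (y axis) by how many open regions they hold (x axis). Right, each of the 477 clusters as a point, with length in kb (x axis) against its number of regions (y axis). Clusters of 4 regions are the most common (266), and length reaches 72.6 kb.

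Clusters were uneven across chromosomes. Chromosomes 7 and 11 held the most, 57 and 53 clusters. As a share of each chromosome's own consensus regions, membership was highest on chromosome 19 (16.8%), chromosome 7 (14.7%), chromosome 11 (14.5%) and chromosome 8 (13.5%). It was lowest on chromosome X (4.09%), with 5 clusters, and on chromosome 16 (4.39%), with 7. Per Mb between the first and last consensus region, chromosome 11 had 2.38 members and chromosome 19 had 2.23, against 0.153 on chromosome X and 0.371 on chromosome 16. Males carry 1 copy of X, and the libraries were from both sexes.

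Chromosomes rich in genes held more members. Chromosome 7 has 2030 protein-coding genes in the RefSeq table of GRCm38.p6 and chromosome 11 has 1609, or 14.3 and 13.6 per Mb, whereas chromosomes 12 and 18 have 5.82 and 5.83 per Mb. Over the 20 chromosomes, members per Mb and protein-coding genes per Mb had a Pearson r of 0.88 and a Spearman rho of 0.83. For the percent of consensus regions that were members, r was 0.79 and rho 0.78. Consensus regions themselves were denser on chromosomes 11 and 19 (16.4 and 13.3 per Mb) than on X (3.74), and the rule selects close spacing. This is a description across chromosomes, whose points share all 10 libraries and the same spans. Chromosomes 8, 15 and 10 had more members than others of like gene density, with 1.43, 1.22 and 1.06 per Mb at 7.72 to 8.22 genes per Mb. Chromosome 6, at 7.70 genes per Mb, had 0.704.

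**Figure D2:**
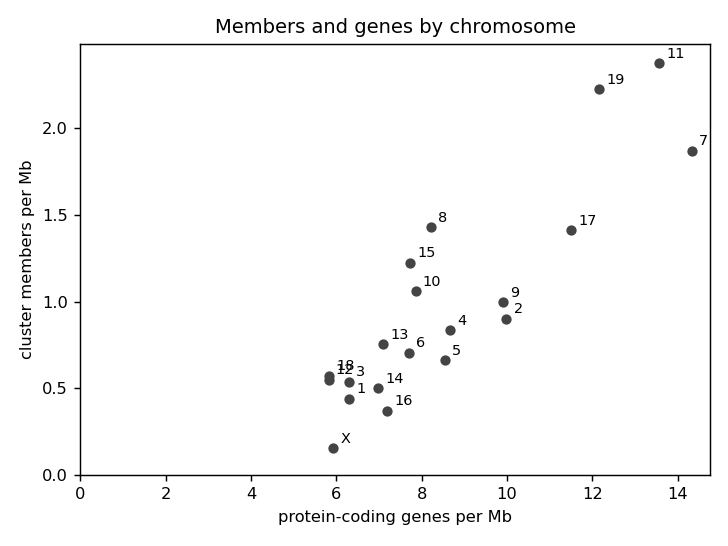
Each point is a chromosome, with protein-coding genes per Mb (x axis) against cluster members per Mb (y axis), both over the span of its consensus regions. Chromosomes 7, 11, 17 and 19 lie at the upper right and X lies lowest, at 0.153 members per Mb.

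The 3 clusters with the most regions each had 12, and they differed in how far the libraries shared them. The longest of all was at chr15:101119620-101192204, 72.6 kb with 12 regions, of which 1 was called in every library and 4 in just 2. Standard-reared activated replicates 1 and 2 called 10 and 6 of its regions, and stressed activated replicates 1 to 3 called 5, 7 and 4. Standard-reared non-activated replicates 1 and 2 called 2 and 6, and stressed non-activated replicates 1 to 3 called 12, 5 and 3. Its most shared region, chr15:101144001-101144686, had 36 and 33 fragments at the summit in the standard-reared activated libraries and 25, 35 and 28 in the stressed activated ones. In the non-activated libraries the summit held 10 and 23 fragments in standard-reared and 81, 18 and 9 in stressed mice. The low values belong to shallow libraries, and the fold over background was at least 6.45 in each of the 10. The fold includes a pseudocount of 1, which lowers it more in shallow libraries.

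The cluster at chr10:79974818-80035677 (60.9 kb) kept several regions in every library. Of its 12 regions, 3 were called in all 10 libraries: chr10:79995474-79996131, chr10:80003305-80004133 and chr10:80026261-80026838. The other 9 were called in 3 to 9 libraries. The library with the shortest list, standard-reared non-activated replicate 1, still called 4 and the shallowest, stressed non-activated replicate 3, called 5, and the longest list called all 12. This was 1 of just 8 clusters in which every library called at least 4 regions.

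The cluster at chr13:23715065-23770061 (55.0 kb) was more divided. Standard-reared activated replicates 1 and 2 called 12 and 11 of its 12 regions, and stressed activated replicates 1 to 3 called 7, 9 and 6. Standard-reared non-activated replicates called 1 and 6, and stressed non-activated replicates 12, 4 and 1. Both standard-reared activated libraries were thus above all stressed activated ones here, while stressed non-activated replicate 1 called as many as the highest. Just 1 region, chr13:23746106-23746834, was called in all 10, with a median fold of 8.34. In its weakest list that region stood at percentile 4.26 of the -log10 q. A further dense stretch on chromosome 13, at chr13:23922623-23948000, held 9 regions within 25.4 kb.

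**Figure D3:**
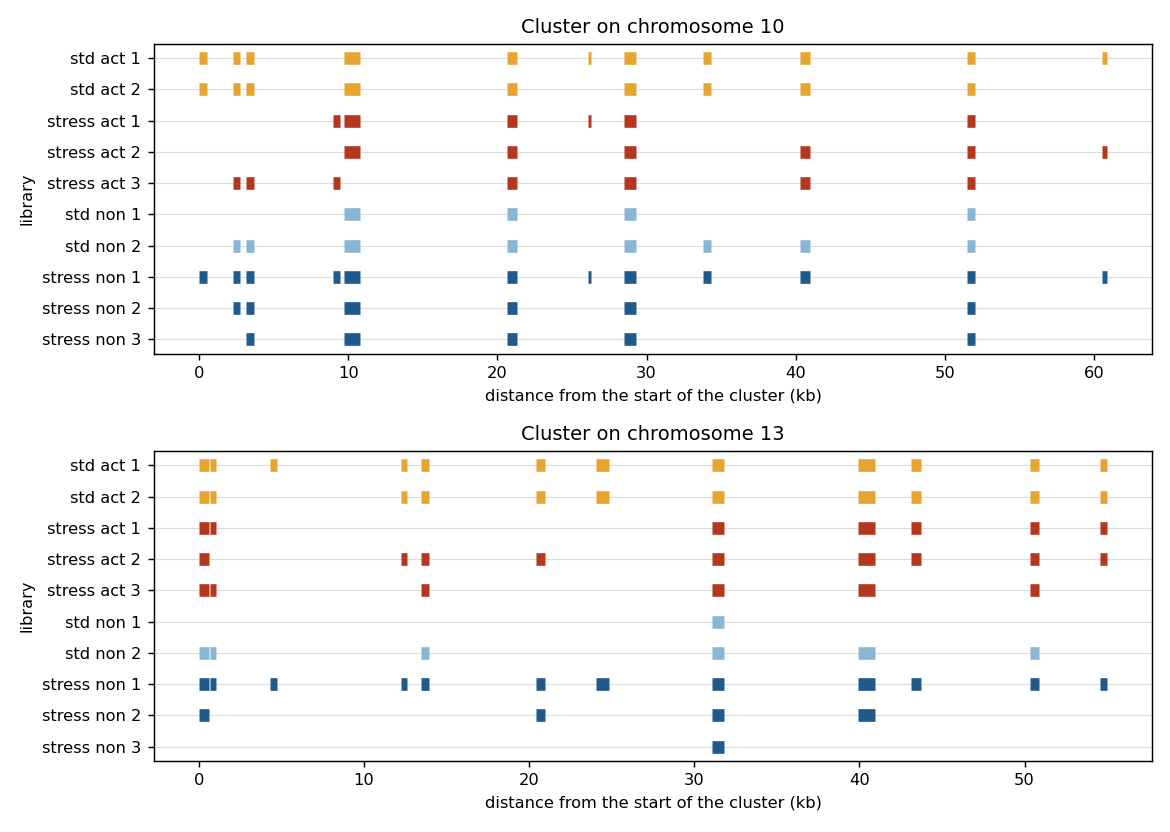
Called regions (bars, drawn at the merged width of the region) in each library (y axis, by rearing, class and replicate) along the clusters of 12 regions on chromosomes 10 and 13 (x axis, distance from the cluster start in kb). In the chromosome 10 cluster 3 regions run through all 10 libraries, and in the chromosome 13 cluster 1 does.

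The other large clusters showed the same mix of a few regions shared by all libraries and many called in some. At chr15:88703181-88760967 (11 regions, 57.8 kb) 4 regions were called in all 10 libraries, the highest number in any cluster and one reached by 3 clusters in all. The others were chr1:172168283-172204904 with 6 regions and chr7:126831870-126873522 with 5, both chosen after their values were seen. The first region of the chromosome 15 cluster, chr15:88703181-88704239, had 19 to 108 fragments at its summit and never stood below percentile 84.0 of a list. At chr8:85516383-85583984 (11 regions, 67.6 kb) 1 region was called in all 10, chr8:85573095-85574080, at percentile 86.4 or above. At chr9:106295392-106354705 (10 regions, 59.3 kb) there were 3 such regions, and the number called per library ran from 4 to 10. The clusters of 10 at chr19:46292698-46357048, chr12:8348059-8407969 and chr8:71915911-71960741 each had 1. The third longest cluster, chr2:156869309-156934231 (9 regions, 64.9 kb), had 2.

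Among the 32 clusters of 8 or more regions, 6 had no region shared by all libraries. The cluster at chr8:105980758-106032501 (9 regions) had 9 called in standard-reared activated replicate 1 and in stressed non-activated replicate 1, and 0 in stressed non-activated replicate 3. In the cluster at chr17:34148225-34200676 (8 regions) standard-reared non-activated replicate 1 called 0, while the stressed activated libraries called 4, 5 and 5. In that at chr17:46029332-46072257 (8 regions) both standard-reared non-activated replicate 1 and stressed non-activated replicate 3 called 0. These 2 libraries called none of the regions in 152 and 106 of the 477 clusters, and stressed non-activated replicate 1 missed 0 clusters.

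Some clusters were short and nearly continuous. The shortest, chr13:51999653-52002278, packed 4 regions into 2.63 kb, of which 59.8% was covered. Stressed non-activated replicate 1 and standard-reared activated replicate 1 called all 4 of them, and no other library called more than 1. The most covered, chr10:13840363-13843815, had 4 regions over 82.3% of 3.45 kb and was called in full by the same 2 libraries. Both were chosen after their values were seen. Clusters also lay near each other: 143 of the 477 had another cluster within 100 kb.

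Sharing between libraries differed little between members and the regions outside clusters, and was shifted towards the middle. Of the members, 389 (16.6%) were called in all 10 libraries, against 4907 (21.3%) outside. A call in 2 libraries was about as frequent, 598 members (25.5%) against 26.2% outside, and 3 to 9 libraries called 1360 members (58.0%) against 52.5%. The median was 5 libraries for both. Of the 598 members called in 2 libraries, 370 (61.9%) were called by stressed non-activated replicate 1 and standard-reared activated replicate 1, the 2 longest lists, and 22 by neither. Of the 199 members called in 9 libraries, 124 lacked standard-reared non-activated replicate 1, which had the shortest list.

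A cluster usually had 0 or 1 region open throughout. In 204 clusters no region was called in all 10 libraries, in 178 there was 1, in 77 there were 2, in 15 there were 3 and in 3 there were 4. No cluster (0 of 477) had all of its regions called in every library. The most shared region of a cluster was called in a median of 10 libraries and the remaining regions in a median of 4. That region was picked as the most shared, so it stands above the rest by choice. Regions at the ends of a cluster and those inside it were alike, with 17.7% of 954 and 15.8% of 1393 called in all 10.

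Neighbouring members were not called together more than distant neighbours were. The libraries that called 2 adjacent members overlapped with a mean Jaccard index (shared libraries over libraries calling either) of 0.478 over 1870 pairs. For 19002 adjacent consensus regions more than 12500 bp apart it was 0.491. Within clusters it was 0.437 for gaps under 1 kb, 0.443 for 1 to 5 kb and 0.502 for 5 kb or more. Pairs in which both regions were called in all 10 libraries made up 2.57% of pairs within clusters and 5.69% of distant pairs. The index also depends on how often regions are called, and 16.6% of members against 21.3% of regions outside were called in all 10. Close regions joined by a peak of any library were merged, so the close pairs are those that stayed apart. Pairs share regions and libraries, so these values carry no test.

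The number of members each library called followed the length of its list. Standard-reared activated replicates 1 and 2 called 2029 and 1424 members (86.5% and 60.7% of all). Stressed activated replicates 1 to 3 called 1137, 1513 and 1097. Standard-reared non-activated replicates 1 and 2 called 533 and 1269, and stressed non-activated replicates 1 to 3 called 2195, 959 and 701. The classes overlapped, since stressed non-activated replicate 1 was highest of all and standard-reared non-activated replicate 2 lay above 2 activated libraries. Of the 477 clusters, all regions were called by a single library in 350 for stressed non-activated replicate 1 and in 252 for standard-reared activated replicate 1, but in 1 for standard-reared non-activated replicate 1. In 29 clusters no library called as many as 4 regions, so these exist through the union of libraries alone.

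By the geometric mean, activated libraries called 1.40 times as many members as non-activated ones, less than the spread among the latter. The mean log2 number was 10.46 ± 0.36 (SD, n = 5) against 9.96 ± 0.79 (SD, n = 5). The log2 difference of 0.49 became 0.71 when stressed non-activated replicate 1 was left out, and every remaining activated library was then deeper than every non-activated one. Activation and depth cannot be told apart in that setting. Since the calls of these same libraries chose the members, the number and the share of members called are given between groups as a description, with no test.

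The share of a library's called consensus regions that were members is less tied to list length, but not free of it. This share was highest in the longest list, stressed non-activated replicate 1, and lowest in the shortest, standard-reared non-activated replicate 1. It was 9.16% and 9.19% in standard-reared activated replicates 1 and 2 and 8.23%, 8.88% and 8.10% in stressed activated replicates 1 to 3. It was 7.74% and 9.19% in standard-reared non-activated and 9.40%, 8.77% and 8.66% in stressed non-activated replicates. Both standard-reared activated libraries were above the 3 stressed ones, by little, and the non-activated groups overlapped. Stressed activated libraries had a mean of 8.40% ± 0.42 (SD, n = 3) and stressed non-activated ones 8.94% ± 0.40 (SD, n = 3), a difference of -0.537 percentage points, and their values overlapped. From the standard-reared activated mean of 9.18% ± 0.023 (SD, n = 2), stressed activated libraries differed by -0.776 points. The standard-reared classes differed by 0.711 points and the non-activated rearing groups by 0.473, both less than the SD of 1.02 points between the 2 standard-reared non-activated libraries. All activated libraries differed from all non-activated ones by -0.038 points, against SDs of 0.519 and 0.64.

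The shares were more apart when each list was shortened to its 7075 strongest peaks by -log10 q, as many as the shortest list holds, with the same clusters. The share was 5.03% and 6.30% in standard-reared activated replicates and 6.37%, 6.95% and 6.48% in stressed activated replicates. It was 7.74% and 8.34% in standard-reared non-activated and 6.96%, 8.30% and 8.45% in stressed non-activated replicates. The classes did not overlap, although the highest activated library and stressed non-activated replicate 1 were nearly equal. The means were 6.23% ± 0.71 and 7.96% ± 0.62 (SD, n = 5 each), a difference of -1.73 percentage points. All 4 animals with both classes had the lower share in the activated library, by -0.59 to -1.97 points, with a mean of -1.34.

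These values carry no test, because list length and the choice of members both enter them. Members ranked lower than other regions by -log10 q in all 10 lists, as given below. The share fell in every list that was shortened, and the part of the q rank in that fall was not tested. Standard-reared non-activated replicate 1 has 7075 peaks and lost none (7.74% in both settings), whereas standard-reared activated replicate 1, with 39776 peaks, went from 9.16% to 5.03%. The 4 shallow libraries with long fragments had shares of 7.74% to 8.45% and the 6 deeper ones with short fragments 5.03% to 6.96%, and the single non-activated library of the latter kind had the lowest non-activated share. Class, depth, list length and fragment length cannot be told apart here. The setting with the clusters kept was chosen after the data were seen. In the planned form, in which clusters were built anew from the shortened lists, 116 members in 28 clusters remained, and the difference was -0.21 percentage points. Within the groups the differences with the clusters kept were -1.30 points in stressed mice, -2.38 in standard-reared mice, 0.934 for rearing in activated nuclei and -0.14 for rearing in non-activated nuclei.

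**Figure D4:**
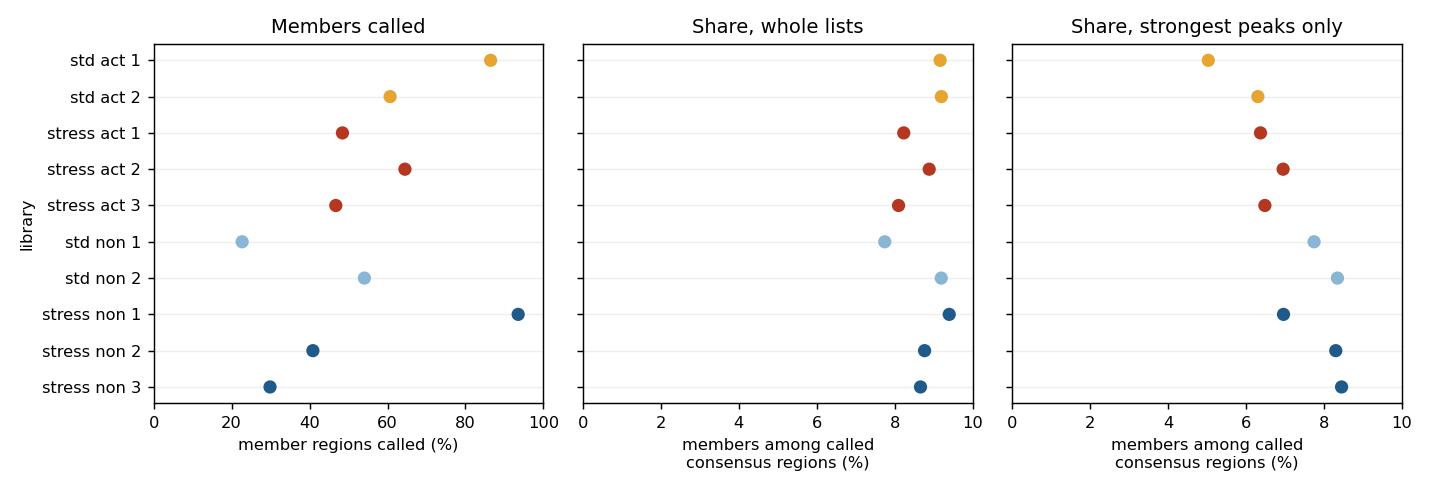
Each point is 1 library (y axis, by rearing, class and replicate). From left to right, the x axes give the percent of the 2347 members called, the percent of called consensus regions that are members in whole lists, and the same percent among the 7075 strongest peaks. Only in the right panel do the 5 activated libraries (5.03% to 6.95%) all lie below the 5 non-activated ones (6.96% to 8.45%).

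Peaks on members stood on a higher background. The expected background at the summit, which the caller takes from the surrounding sequence or the whole genome, was 1.29 to 1.67 times as high on members as on regions outside clusters in the 10 libraries. In standard-reared activated replicate 1 its median was 5.38 fragments on members and 3.22 outside, and in stressed non-activated replicate 3, the shallowest, 0.530 and 0.410. The fragments piled up at the summit were also more numerous on members in 9 of 10 libraries, for example 31 against 28 in stressed non-activated replicate 1 and 24 against 21 in standard-reared activated replicate 1. In standard-reared activated replicate 2 both medians were 17. The fold over background was lower on members in 10 of 10 libraries, at 0.781 to 0.962 times the value outside. That ratio was 0.781 to 0.822 in the deeper libraries with short fragments and 0.8785 to 0.962 in the shallow ones. These values are a description with no test, since the rule chose members for near neighbours. The surrounding sequence that sets the background can hold those neighbours, and their part in it was not tested.

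By statistical strength, members ranked lower than other consensus regions. The median percentile of the -log10 q within a list was lower on members in 10 of 10 libraries, by -3.18 to -10.8 points. In stressed activated replicate 1, for instance, it was 47.2 on members and 57.9 outside. The difference was -5.30 to -10.8 points in activated and -3.18 to -5.03 points in non-activated libraries. Averaged per animal it was -6.24 ± 1.20 percentile points (SD, n = 6 animals), which mixes the classes. It is given as a description with no test, since the same peak calls chose the members. Ranked by fragments at the summit in place of q, the direction turned, to 5.57 points higher on members. This second ranking was chosen after the data were seen and likewise carries no test. The higher background moves with the lower q rank, and its part in that rank was not tested. It was measured at the same summits, as part of the same peak calls.

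Peaks on members were also narrower. The median width was 0.803 to 0.949 times that outside clusters in the 10 libraries, for example 327 bp against 407 bp in standard-reared activated replicate 2 and 338 bp against 356 bp in stressed non-activated replicate 3. The ratio was 0.803 to 0.824 in activated and 0.856 to 0.949 in non-activated libraries, and class and depth were not told apart. Averaged per animal, the log2 ratio was -0.22 ± 0.05 (SD, n = 6 animals), which mixes the classes. This is a description with no test, since the rule used the same interval ends: narrow peaks can stay apart as several regions, and wide ones leave smaller gaps. Peaks with more than 1 summit were less frequent on members in the 6 deeper libraries (14.95% to 30.7%, against 19.2% to 36.6% outside). In the other 4 libraries they made up 1.57% to 5.20% on members and 1.20% to 5.12% outside.

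**Figure D5:**
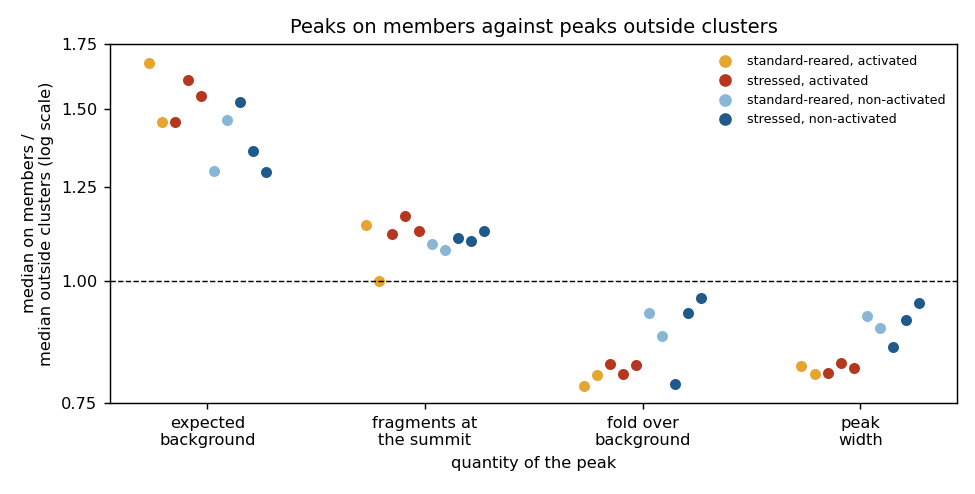
For each library (1 point, coloured by group), the median over peaks on cluster members divided by the median over peaks on consensus regions outside clusters (y axis, log scale), for 4 quantities (x axis). Background lies above 1 in all 10 libraries, fold and width lie below 1 in all 10, and the number of fragments at the summit is at or slightly above 1.

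Members called in every library of 1 group and in no library of the other were counted next, beside the same share of all 25424 consensus regions. In stressed mice 2 members (0.0852%) were called in all 3 activated and no non-activated library, against 0.173% of all consensus regions. The reverse held for 7 members (0.298%), against 0.0708%. In standard-reared mice 303 members (12.9%) were called in both activated libraries and neither non-activated one, near the 10.9% of all regions, and 7 (0.298%) the other way, against 0.169%. Pooled over rearing, 1 member was called in all 5 activated and no non-activated library (0.0275% of all regions were), and 0 the other way (0% of all regions). For rearing in activated nuclei, 8 members (0.341%) were called in the stressed group alone and 119 (5.07%) in the standard-reared group alone, against 0.366% and 3.81% of all regions. In non-activated nuclei the numbers were 9 (0.383%) and 1 (0.0426%), against 0.358% and 0.0315%. The 2 largest sets, 303 and 119 members, belong to the standard-reared activated group, which holds the second longest list.

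The same counts among the 7075 strongest peaks follow from the same shortened lists, and nothing is read from how they differ from the share of all regions. In standard-reared mice 102 members (4.35%) were among the strongest peaks of both non-activated and neither activated library, against 2.01% of all regions, and 16 (0.682%) the other way, against 2.1%. In stressed mice 12 members (0.511%) were on the non-activated side against 0.177%, and 4 (0.170%) on the activated side against 0.503%. Pooled, 6 members (0.256%) stood on the non-activated side against 0.0354%, and 0 on the activated side against 0.0983%. For rearing in activated nuclei 29 members (1.24%) were on the stressed side against 0.688% and 15 (0.639%) on the standard-reared side against 0.85%. In non-activated nuclei 3 (0.128%) were on the stressed side against 0.216% and 14 (0.597%) on the standard-reared side against 0.539%. The comparisons share libraries, and these shares carry no test.

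The member called in every activated and no non-activated library was chr13:83880394-83880806, 413 bp, in a cluster of 7 regions at chr13:83863054-83893682. It had 22 and 15 fragments at the summit in standard-reared activated replicates 1 and 2, and 21, 19 and 17 in stressed activated replicates 1 to 3, with folds of 3.01, 3.70, 4.48, 3.44 and 3.47 in that order. Its rank was modest, down to percentile 19.4 in its weakest list. The cluster around it was open in both classes, with chr13:83878654-83879651 and chr13:83892937-83893682 called in all 10 libraries. The former ends 742 bp before the activated member. Non-activated libraries called 2 and 3 (standard-reared) and 5, 2 and 2 (stressed) regions of this cluster, and activated libraries 7 and 5, and 5, 6 and 4. The other member called in all stressed activated and no stressed non-activated library, chr3:96396894-96397188, had 12, 12 and 8 fragments and reached only percentile 4.94 in its weakest list. It was not called in standard-reared activated libraries. However, a gap of just 45 bp parts it from chr3:96396446-96396848, which 7 libraries called. Those were all activated libraries, standard-reared non-activated replicate 2 and stressed non-activated replicate 1.

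On the non-activated side in stressed mice, chr9:121200521-121200942 ranked first, in a cluster of 4 regions. It had 49, 9 and 8 fragments in stressed non-activated replicates 1 to 3 and 6 and 12 in the standard-reared non-activated ones. It was absent from all 3 stressed activated lists, but both standard-reared activated libraries called it, with 19 and 16 fragments and folds of 3.29 and 5.21. Next was chr10:81387430-81387807, with 24, 6 and 5 fragments in the stressed non-activated libraries. It was likewise called in both standard-reared activated libraries (28 and 13 fragments). The third, chr19:5742365-5742850, had 25, 11 and 13 fragments in the stressed non-activated libraries and was called in 1 library of each standard-reared group.

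In standard-reared mice the highest-ranked member on the activated side was chr2:37320561-37321490. It had 19 fragments in each standard-reared activated library and stood at percentile 79.5 or above in those lists. All 3 stressed activated libraries (16, 20 and 9 fragments) and all 3 stressed non-activated ones (28, 5 and 3) called it too, so the 2 standard-reared non-activated libraries alone lacked it. The member chr3:108478769-108479251 followed the activated label more closely, with 25 and 20 fragments in standard-reared and 18, 21 and 16 in stressed activated libraries. Stressed non-activated replicate 1 also called it, with 41 fragments, and the 4 shallow non-activated libraries did not. In the same way chr13:120059139-120059598 was called in all 5 activated libraries (38, 25, 16, 28 and 17 fragments) and in stressed non-activated replicate 1 (16). No region of its cluster of 6, chr13:120057897-120079088, was called in the 4 shallow libraries. On the other side, chr9:108926831-108927272 had 18 and 29 fragments in the standard-reared non-activated libraries and was called in all 5 non-activated ones. It was also called in stressed activated replicates 2 and 3, with 23 fragments each. The third there, chr11:96954174-96954757, was called only in the 2 standard-reared non-activated libraries, with 11 and 12 fragments, and in none of the other 8.

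For rearing in activated nuclei, chr18:82556261-82557031 led the stressed side, with 16, 21 and 18 fragments in stressed activated replicates 1 to 3. All 5 non-activated libraries called it as well (8 and 11 in standard-reared, 24, 11 and 6 in stressed mice), so just the 2 standard-reared activated libraries lacked it. Next was chr6:36774095-36774559, with 11 fragments in each stressed activated library. On the standard-reared side chr13:78347135-78347607 had 32 and 27 fragments in the activated libraries, and of the other 8 only stressed non-activated replicate 1 called it (22). The same held for chr5:24630053-24630468 (46 and 29 fragments, and 36 in stressed non-activated replicate 1). It held too for chr8:85550292-85550691 in the chromosome 8 cluster of 11 regions (21 and 15 fragments, and 43). These 3 members were called by the 2 longest lists and by standard-reared activated replicate 2.

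In non-activated nuclei, chr5:24609573-24609899 led the stressed side with 16, 8 and 9 fragments and was also called in stressed activated replicate 2 (24). It lies in the same cluster of 8 regions, chr5:24588259-24630468, as the standard-reared activated member just described. Next was chr12:86833796-86834265, with 15, 6 and 5 fragments in stressed non-activated and 13 and 11 in standard-reared activated libraries. Stressed activated replicates 2 and 3 called it too. The standard-reared side held the chr11:96954174-96954757 member alone. Several of these fragment numbers are close to the lowest pileup called in a shallow list, which was 2 to 4 fragments, so a missing call in such a list sets a weak limit.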

How the data were processed

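The deposited files are 10 narrowPeak lists, 1 per library and not pooled. The build was mm39, and MACS2 2.2.9.1 is the peak caller among the tools listed, with Bowtie2 2.4.5, SAMtools 1.13, R 4.4.2 and fastp 0.23.4, per the submitters' processing notes. No source used here gives the calling settings. In the deposited lists the fold is a linear ratio of pileup to background, p and q are given as -log10, and the score is 10 times the -log10 q. Start, end and summit positions are those the authors deposited.

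Intervals repeated for several summits were counted once, by the best summit. Peaks overlapping by 1 bp were merged. Pileup and background were solved from fold and p of each peak (pseudocount 1), and depth is the lowest background divided by the smallest peak width, which was taken as the fragment length. The libraries of 1 animal were averaged for peak height and width. Tests had been planned for height, for width and for the number and share of members called. Those values are given without a test, since the rule used the same intervals and calls. Replicate numbers pair animals in stressed mice, where library names show the pairs. After standard rearing the numbers do not match the single animal with both classes (number 2 when activated, 1 otherwise), and blocks were built on animals. Members, gene lists and tests were chosen with earlier results of these data known. Clusters were named by size, length and sharing (the 10 with the most regions, the 3 longest, and among those of 8 or more the 3 with the highest and 3 with the lowest share in all libraries), and members of 1 group by rank, up to 3 per direction. The cluster at chr13:23922623-23948000 and those marked as such in the text were chosen after their values were seen. Cell type marker and gene lists were not used, since they need an mm39 annotation. The scripts were tested on simulated data. The values were computed with SciPy 1.17.1 and pandas 2.3.3 under Python 3.11.15 (NumPy 2.4.6), and the figures drawn with Matplotlib 3.10.9.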

Additional observations from a re-analysis of the deposited data

How the results depend on the processing

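The clusters depend on the rule and on the 2 longest lists. With gaps of 5 kb there were 44 clusters (182 members), with 25 kb 1156 (6893), at a -log10 q of at least 5, 136 (634), with 3 or more files 216 (1026), and at equal list length 28 (116). Without stressed non-activated replicate 1 there were 252 clusters (1190 members) and without standard-reared activated replicate 1 269 (1293). Peak height by q and peak width kept their direction with gaps of 5 kb and under the q, overlap, file number, list length and autosome settings. The gap of 25 kb was run for the numbers of clusters and members alone. The height was -12.7 and the log2 width -0.43 with gaps of 5 kb, and the height was -2.89 at equal list length. With 1 animal left out the height ranged from -6.49 to -5.31 and the log2 width from -0.23 to -0.20. By summit pileup, a setting chosen after the data were seen, the height was 5.57.

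The share of members over all activated against non-activated libraries turned to 0.0484 with gaps of 5 kb and to 0.0415 with 3 or more files. It became -0.211 at equal list length and -1.73 with the clusters kept, and -1.43 to -1.98 there with 1 library left out. In whole lists leaving out 1 library gave -0.281 to 0.136 for all libraries, -0.686 to -0.167 in stressed mice and -0.0099 to 1.39 in standard-reared mice. For rearing it gave -0.922 to -0.51 in activated and -0.253 to 1.17 in non-activated nuclei. At equal list length, built anew and with the clusters kept, the values turned to -0.317 and -2.38 (standard-reared mice), 0.0985 and 0.934 (rearing, activated) and -0.0778 and -0.14 (rearing, non-activated). The cause was not tested. Paired within animals (replicate block), the share differed by -0.0401 over 4 animals and by -0.537 in stressed mice, and the log2 number of members by 0.44. The log2 number was 0.26 to 0.71 with 1 library left out and turned to -0.26 at equal list length.

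Members of 1 group were fewer in the settings with fewer clusters, and mostly more numerous with 1 library left out. Leaving out a library leaves fewer lists that have to lack or hold a region, and it also changes the clusters and members. These were not told apart. In stressed mice the 9 became 1 (5 kb), 3 (-log10 q of at least 5), 5 (3 or more files) and 1 (equal length, built anew), and 21 to 72 with 1 library left out. In standard-reared mice the 310 became 27, 62, 167 and 12, and 239 to 833. Pooled, the 1 became 0 (5 kb, -log10 q and equal length), and 1 to 15. For rearing the 127 in activated nuclei became 16, 33, 66 and 4, and 114 to 532. The 10 in non-activated nuclei became 1, 1, 4 and 2, and 21 to 181. Among the non-activated libraries, stressed replicate 1 called by far the most members, 2195 against 533 to 1269 in the rest. It was also the deepest of them. Depth limits absence: a region missing from a shallow list may be open.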
